A study of Mus musculus with 33 samples.

Results

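Mef2cf/f mice carry loxP sites around an exon that encodes a piece of the DNA-binding region of MEF2C, and without a Cre recombinase their Mef2c gene is left whole. They served the study as the control line for Mef2c-cKO Camk2a-Cre mice (labelled Mef2cCKO, and Mef2c-cKO from here on), in which a Camk2a-driven Cre removes that exon in forebrain excitatory neurons. The paper reports that some of these mice, CS samples among them, also carried a recombined allele in tail tissue. It states that reduced Mef2c dosage in all cell types may therefore contribute to their transcriptome. The question for these animals was how the frontal cortex transcriptome of the control line answered sleep loss. The members are all samples of this genotype, 7 libraries of the 33 in the series. They comprised 4 libraries from mice in control sleep (CS, free to sleep) and 3 from mice sleep deprived (SD) for 6 hr on a slowly moving treadmill. All were adult males on a C57BL/6J background, kept in darkness from before the experimental day, and the frontal cortex was taken at the same circadian hour in both groups. Wild-type (WT) C57BL/6J mice (6 CS and 7 SD libraries) and Mef2c-cKO mice (3 CS and 3 SD) are used only as points of comparison. The floxed line was moved onto C57BL/6J by backcrossing, so some of its other alleles may still differ from those of the WT mice. Each library is treated as a separate mouse, which the labels do not state, so that the p-values measure the spread between these libraries.

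During extended wakefulness cortical neurons keep firing, and calcium and MAP kinase signals switch on immediate early genes such as Fos, Egr1 and Arc within minutes. Their products are transcription factors and synaptic proteins that adjust the neuron's later output. Prolonged waking is also known to load the endoplasmic reticulum (ER), where chaperones such as BiP, the product of Hspa5, assist the folding of new proteins. MEF2C is itself a transcription factor that responds to neuronal activity and restrains the number of excitatory synapses.

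Levels are given as CPM (read counts scaled to the depth of the library) rescaled so that the typical gene has the same level in every library, and log2 fold changes are of rescaled CPM + 0.5, which understates the change of genes with low levels. Library depth was 18935000 to 52918800 reads, and 12507 to 12568 genes reached a CPM of 1 in a library. The test covered 12410 genes that reached this level in all CS or all SD libraries. A differentially expressed gene (DEG) was a gene with a limma adjusted p no higher than 0.05 whose log2 fold change was 0.3 or more in size, and "rose" and "fell" are used for these genes. The CS libraries scattered more than the SD libraries, with a median standard deviation (s.d.) per gene of 0.16 against 0.09 on the log2 scale. Spearman's rho between libraries ran from 0.983 to 0.997. Among the floxed libraries, CS library 3 stood apart in genes of the olfactory bulb, a structure that borders the frontal cortex. Its Pbx3 was 224.8 rescaled CPM against 28.6 to 47.5 in the other CS libraries and 31.9 to 36.9 in the SD libraries. Its Eomes, a factor of olfactory projection neurons, was 5.61 rescaled CPM, and the highest value in any other library was 0.07. Summed over Th, Cdhr1, Calb2, Pbx3, Eomes, Doc2g and Tbx21, this library held 306.2 rescaled CPM and the other 6 held 38.8 to 56.5. Outside the floxed mice high levels were common. Pbx3 ranged from 97.9 to 190.5 rescaled CPM over the Mef2c-cKO libraries and from 58.5 to 246.7 over the WT libraries. Cdhr1, 28.7 in floxed CS library 3, ranged from 15.1 to 39.2 and from 3.93 to 37.6. WT SD library 9 was the highest WT library for both genes. The part of tissue content in differences between genotypes was not tested. All 17 excitatory neuron markers were at or above 1 CPM in every library, but so were all 12 astrocyte and 15 oligodendrocyte markers and 9 of 11 striatal markers, so that this check does not tell the frontal cortex from neighbouring regions.

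To ask which genes moved with sleep loss in the floxed line, the 3 SD libraries were set against the 4 CS libraries. Cyclin D1, the growth arrest gene Gadd45a and the pseudokinase Trib2 rose, and the endosomal signalling gene Zfyve28 and the chromatin gene L3mbtl1 fell. These 5 genes were the only DEGs by limma, 0.0403% of the genes tested, although 2111 genes (17.0%) had an unadjusted p of at most 0.05. DESeq2, the tool of the study, run on the read counts recovered from the CPM values, called 467 DEGs with the same thresholds, 192 higher in SD and 275 lower. These are 1.55% and 2.22% of the genes tested, and all 5 limma DEGs were among them. edgeR's quasi-likelihood test called 9, 7 higher and 2 lower. The number of calls hung on single libraries: without CS library 1 limma called 590 DEGs and DESeq2 1309. Without any other library limma called 0 to 3, with 1235 to 2123 genes with an unadjusted p up to 0.05, and DESeq2 called 106 to 399. As a measure free of any model, genes were counted whose 3 SD libraries all lay above or all lay below the 4 CS libraries. There were 1059 of the first kind (8.53% of the genes tested) and 1104 of the second kind (8.9%), and 459 of the 467 DESeq2 DEGs belonged to them. Counts for the gene lists below are to be read beside these shares and those of the DESeq2 calls.

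Ccnd1 (chr7:144929931-144939925, positions here and below in GRCm38) encodes cyclin D1, which carries growth factor signals into the cell cycle and is also present in neurons that no longer divide. Its 4 CS libraries held 23.2, 22.9, 23.7 and 24.3 rescaled CPM, and its SD libraries 37.2, 39.5 and 35.2. No SD value came near the CS values, and the log2 fold change was 0.65 ± 0.08 (SE; adjusted p = 0.044, limma). Gadd45a (chr6:67035096-67037457), a stress-induced gene linked to growth arrest and DNA repair, stood at 2.798, 2.61, 2.90 and 3.48 rescaled CPM in CS. In SD it stood at 6.64, 6.43 and 5.95 with a log2 fold change of 0.99 ± 0.13 (SE; adjusted p = 0.049, limma). Trib2 (chr12:15791727-15816922), a Tribbles pseudokinase that steers protein degradation, was measured at 31.0, 34.0, 27.1 and 29.1 rescaled CPM in CS and at 57.6, 49.6 and 48.0 in SD. Its log2 fold change was 0.76 ± 0.10 (SE; adjusted p = 0.049, limma).

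Zfyve28 (chr5:34194893-34288449) encodes a lipid-binding protein of endosomes that limits EGF receptor signalling. It held 133.6, 156.7, 155.8 and 157.8 rescaled CPM in CS and 87.8, 91.1 and 92.8 in SD, a log2 fold change of -0.73 ± 0.08 (SE; adjusted p = 0.044, limma). L3mbtl1 (chr2:162943472-162974522), a Polycomb-group chromatin reader, held 22.3, 23.2, 23.1 and 22.5 rescaled CPM in CS and 14.1, 15.3 and 15.1 in SD. For L3mbtl1 the log2 fold change was -0.60 ± 0.08 (SE; adjusted p = 0.049, limma). In both genes that fell, every SD library lay below every CS library.

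**Figure D1:**
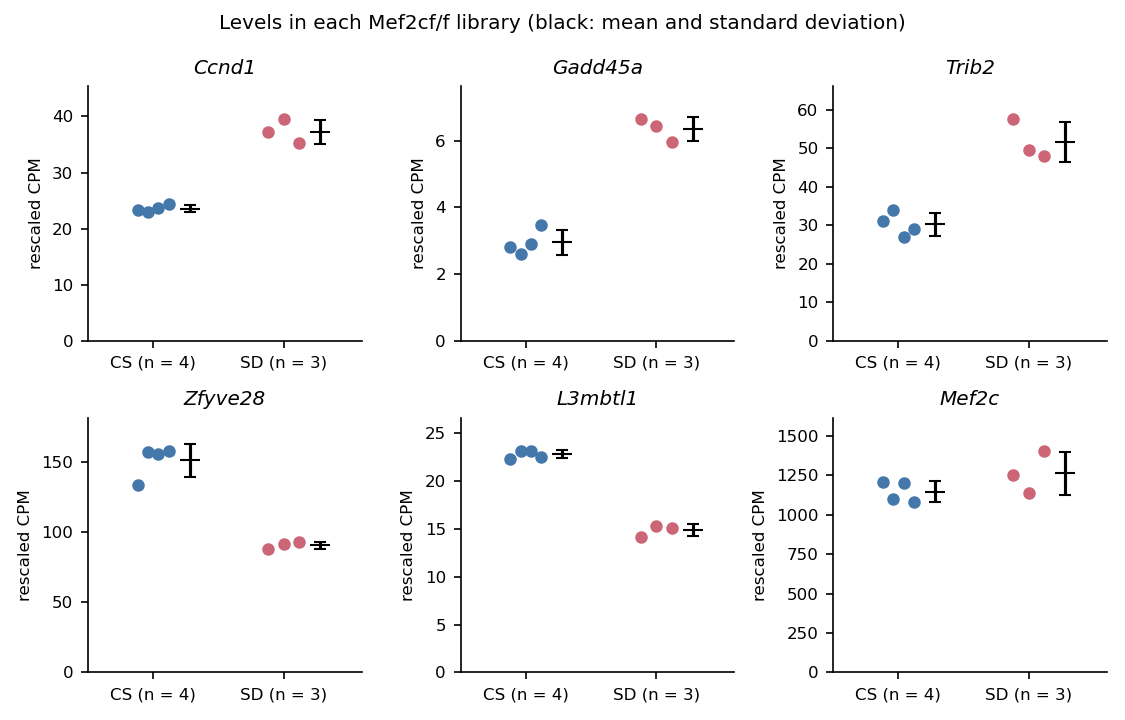
Rescaled CPM of the 5 limma DEGs and of Mef2c in each of the 4 CS (blue) and 3 SD (red) Mef2cf/f libraries, with the group mean and standard deviation in black. The CS and SD libraries of the 5 DEGs do not overlap, whereas those of Mef2c do.

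Mef2c itself (chr13:83504034-83667080) overlapped between the groups. Its CS libraries held 1207, 1098, 1203 and 1080 rescaled CPM and its SD libraries 1250, 1135 and 1406, and the log2 fold change of 0.14 had a 95% interval from -0.09 to 0.36 (adjusted p = 0.50, limma). Among the 7 tested genes for MEF2 factors and the class IIa histone deacetylases that bind them, Hdac7 alone was called by DESeq2. Hdac7 went from 25.8 to 27.5 rescaled CPM in CS to 21.2 to 22.6 in SD (DESeq2 adjusted p = 0.0079; limma adjusted p = 0.13). In Mef2c-cKO mice the same count over the whole gene was 1431 ± 414.5 (s.d., n = 3) in CS and 1311 ± 192.2 (n = 3) in SD, a measure that does not check the deletion of a single exon.

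Many activity-regulated transcription factors held higher levels in SD. Of 21 tested, 11 had all SD libraries above all CS libraries and 0 had them below, DESeq2 called 8 higher, and the median log2 fold change was 0.50 against -0.00 over all genes tested. None passed the limma threshold. Egr2, a zinc finger factor of the late immediate early response, held 0.59, 1.27, 0.38 and 0.20 rescaled CPM in CS and 4.90, 2.71 and 2.17 in SD. Its log2 fold change of 1.78 ± 0.33 (SE) was the largest by absolute size among the genes tested (limma adjusted p = 0.081; DESeq2 adjusted p = 1.7e-04). Egr2 and Egr4 met the CPM filter only through the SD group, and the CS libraries held 4 to 45 reads of Egr2. The rank of Egr2 and the place of both genes in these counts therefore depend in part on the filter. Fos, the founding immediate early gene, held 2.40, 6.29, 3.56 and 3.74 rescaled CPM in CS and 14.9, 8.66 and 7.66 in SD (log2 fold change 1.29 ± 0.29, SE; DESeq2 adjusted p = 0.0015). Egr1, which couples synaptic activity to plasticity genes, ranged from 39.1 to 66.7 rescaled CPM in CS and from 82.2 to 101.9 in SD, a log2 fold change of 0.87. SD library 1 held the highest level of Fos, Fosb and Egr2, and SD library 3 the lowest.

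Fosb, Egr4, Ier5, Klf10 and Crem completed the 8 that DESeq2 called, with log2 fold changes of 0.68, 0.83, 0.68, 0.54 and 0.37. Ier5, a heat shock factor cofactor, missed the limma threshold narrowly (adjusted p = 0.051) and had CS values of 32.3 to 40.7 rescaled CPM below SD values of 54.3 to 64.0. Other early genes overlapped between groups. Npas4, the neuronal factor that is most strictly tied to calcium entry, held 8.49, 12.3, 8.54 and 11.7 rescaled CPM in CS and 12.5, 6.22 and 4.49 in SD, so the groups overlapped. Junb ranged from 6.54 to 15.7 rescaled CPM in CS and from 9.58 to 22.8 in SD, and Nr4a1 from 15.8 to 36.4 and from 21.1 to 44.7, also with overlap.

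Activity-regulated effector genes, whose products act mainly at the synapse or outside the cell, were read next. Of 27 tested, 13 had SD libraries above all CS libraries, 0 had them below, DESeq2 called 9 higher, and the median log2 fold change was 0.43. Homer1, whose short activity-induced form loosens postsynaptic scaffolds, held 362.5, 326.8, 298.8 and 292.9 rescaled CPM in CS and 727.8, 592.1 and 484.2 in SD. Its log2 fold change of 0.89 ± 0.14 (SE) came with a limma adjusted p of 0.057 and a DESeq2 adjusted p of 3.7e-07, and the gene count does not separate the short from the long form. Arc, which drives AMPA receptor endocytosis, had a larger log2 fold change of 1.27 but overlapping groups, with 21.6, 52.1, 21.8 and 44.4 rescaled CPM in CS and 121.6, 97.7 and 41.2 in SD. The other 8 effectors that DESeq2 called were Bdnf, Vgf, Scg2, Nrn1, Ptgs2, Sik1, Gpr3 and Dnajb5, none of which overlapped between groups. Their log2 fold changes lay between 0.32 for Scg2, a granin, and 0.71 for Sik1, a kinase that restrains CREB signalling. Bdnf, the neurotrophin, held 27.3, 26.9, 24.8 and 22.9 rescaled CPM in CS and 48.2, 29.1 and 35.5 in SD, so that SD library 2 lay just above the CS libraries.

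MAP kinase signalling induces its own inhibitors. Of 17 MAP kinase phosphatase and Sprouty-family genes tested, 9 had SD libraries above all CS libraries and 1 had them below, and DESeq2 called 4 higher, Dusp4, Dusp6, Spry4 and Spred1. Dusp6, the phosphatase that is specific for ERK, held 41.8, 44.0, 33.0 and 42.1 rescaled CPM in CS and 74.8, 62.6 and 53.2 in SD (log2 fold change 0.65 ± 0.13, SE; DESeq2 adjusted p = 7.8e-04). Spred1, a brake on Ras, ranged from 204.2 to 256.5 rescaled CPM in CS and from 307.3 to 342.7 in SD. Dusp1, which is induced by both activity and glucocorticoids, overlapped between groups, with 7.49 to 15.4 rescaled CPM in CS and 8.10 to 16.5 in SD.

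**Figure D2:**
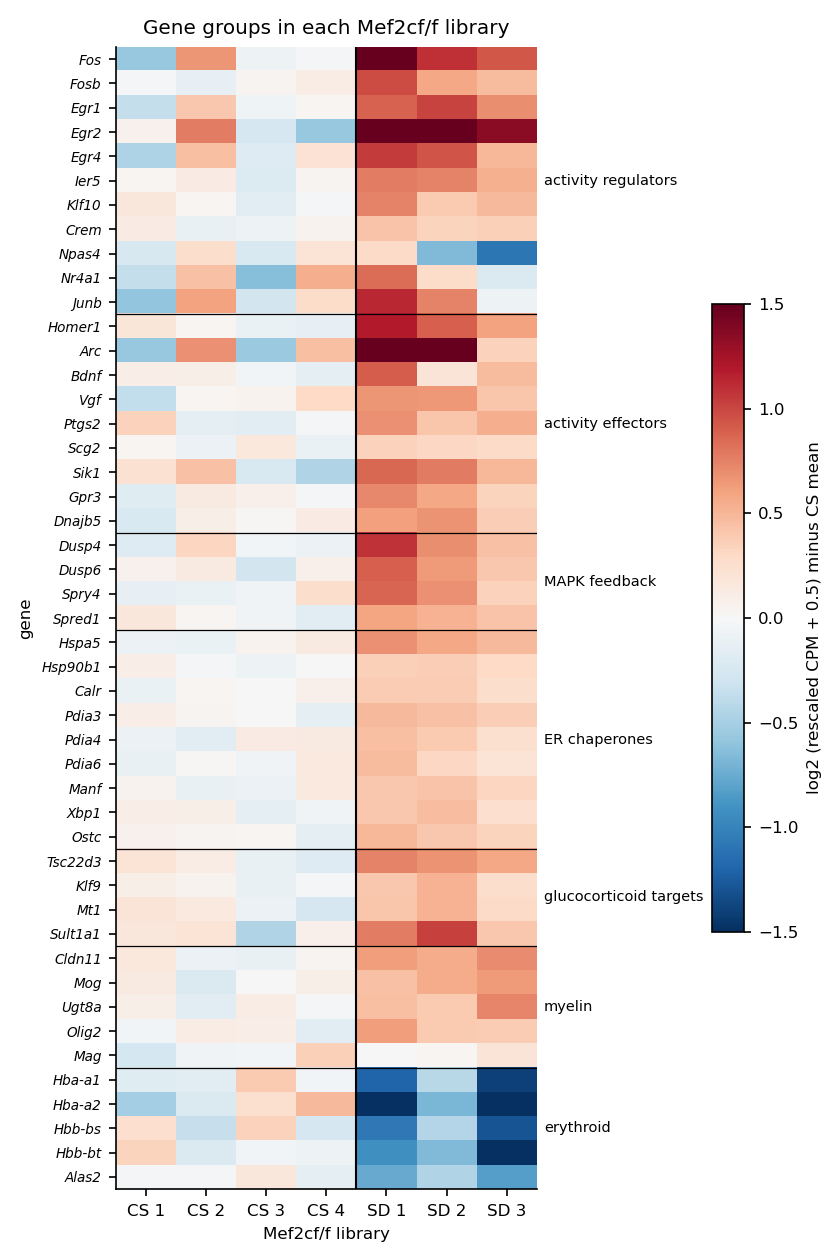
Log2 (rescaled CPM + 0.5) minus the CS mean for genes named in the text, most of them chosen because DESeq2 called them (rows, by group), in each Mef2cf/f library (columns, CS left and SD right of the black line). Activity, MAP kinase feedback, ER chaperone, glucocorticoid target and myelin genes are mostly red in the 3 SD libraries and erythroid genes blue, while Npas4 is blue in 2 of the 3 SD libraries; colours saturate at the ends of the scale.

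Genes for ER chaperones and folding enzymes were read with their promoters. Of 28 tested, 11 had SD libraries above all CS libraries and 1 had them below, DESeq2 called 9 higher and 0 lower, and the median log2 fold change was 0.25. Many ER chaperone promoters hold an ER stress response element (ERSE), bound by NF-Y together with ATF6 or XBP1. The element was searched on both strands as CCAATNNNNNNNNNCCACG in the 250 bases before each transcription start in RefSeq (GRCm38.p6). It occurred in 8 of the 21 tested list members that have a promoter entry (38.1%), in 0.154% of the 9718 tested genes with an entry and in 0.13% of all 27025 genes with an entry. The promoter stretches of 5 holders are given 5′ to 3′ on the gene's strand, with the element in capitals, to show the letters these genes share. A stretch in which the capitals begin with CGTGG carries the element on the opposite strand.
Hspa5 (chr2:34771840-34772089, plus strand): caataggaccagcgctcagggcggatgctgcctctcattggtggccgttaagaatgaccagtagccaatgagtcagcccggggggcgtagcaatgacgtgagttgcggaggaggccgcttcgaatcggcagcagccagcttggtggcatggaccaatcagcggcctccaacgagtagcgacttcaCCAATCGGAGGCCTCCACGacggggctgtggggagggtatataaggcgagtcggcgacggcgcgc
Hsp90b1 (chr10:86705498-86705691, minus strand): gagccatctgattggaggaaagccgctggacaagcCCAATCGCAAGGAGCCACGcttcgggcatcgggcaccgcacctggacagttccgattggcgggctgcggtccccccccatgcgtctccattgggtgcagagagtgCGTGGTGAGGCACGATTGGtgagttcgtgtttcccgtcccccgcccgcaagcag
Calr (chr8:84847040-84847128, minus strand): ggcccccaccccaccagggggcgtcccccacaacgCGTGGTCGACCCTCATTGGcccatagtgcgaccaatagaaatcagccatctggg
Pdia6 (chr12:17266456-17266544, plus strand): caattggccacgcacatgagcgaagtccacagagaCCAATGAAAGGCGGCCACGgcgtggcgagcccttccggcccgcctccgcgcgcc
Creld2 (chr15:88819485-88819573, plus strand): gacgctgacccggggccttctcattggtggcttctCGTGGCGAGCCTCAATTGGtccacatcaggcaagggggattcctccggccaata

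Hspa5 encodes BiP, the main ER chaperone of the HSP70 family. It held 137.7, 136.0, 151.0 and 160.0 rescaled CPM in CS and 234.3, 219.0 and 205.3 in SD, a log2 fold change of 0.59 ± 0.09 (SE; limma adjusted p = 0.051; DESeq2 adjusted p = 3.7e-07). Hsp90b1, the ER member of the HSP90 family with 2 copies of the element in its window, ranged from 240.0 to 270.7 rescaled CPM in CS and from 311.7 to 327.7 in SD. Calr, the lectin chaperone calreticulin, ranged from 218.6 to 246.2 and from 281.8 to 306.1, and Pdia6, a disulfide isomerase, from 59.6 to 71.2 and from 73.9 to 89.5. DESeq2 called all of these 4 higher, and their limma log2 fold changes lay between 0.33 and 0.59. Creld2 holds the element as well but had overlapping groups, with 5.13 to 6.91 rescaled CPM in CS and 5.82 to 8.06 in SD.

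Of the 8 list members with the element, 6 had SD libraries above all CS libraries and DESeq2 called 4 higher. Of the 13 with a promoter entry and no element in the window, 3 were above and DESeq2 called 3. The 7 tested genes outside the list that hold the element had 0 above and 0 called, with a median log2 fold change of -0.08. The other members that DESeq2 called were Pdia3, Pdia4, Manf, Xbp1 and Ostc, with log2 fold changes of 0.43, 0.36, 0.39, 0.37 and 0.41. They encode a pair of disulfide isomerases, a secreted ER stress factor, a transcription factor of the unfolded protein response and a subunit of the glycosylation complex. Ddit3 and Atf4, genes of the PERK branch of ER stress, had log2 fold changes of -0.11 and 0.07 and overlapping groups.

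For comparison, the Egr2 promoter holds a CArG box, the site of serum response factor. It is shown because Egr2 had the largest fold change, a rank that depends in part on the filter. The box occurred in 1.37% of the tested genes' promoters and, among the 17 activity-regulated transcription factors with an entry, in Egr2 alone, in 4 of its 5 entries. The stretch below carries it in capitals.
Egr2 (chr10:67537459-67537538, plus strand): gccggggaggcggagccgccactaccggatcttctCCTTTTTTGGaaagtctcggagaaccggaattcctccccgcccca

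Cytosolic heat shock genes and temperature-sensitive genes followed in the count, beside shares of 8.53% above and 8.9% below over all genes tested. Of 25 heat shock genes and cochaperones, 7 had SD libraries above all CS libraries and 0 below, but DESeq2 called only Cryab, a small heat shock protein of oligodendrocytes and astrocytes (22.5 to 29.7 rescaled CPM in CS, 31.1 to 36.2 in SD). Hsp90aa1 and Dnaja1 also did not overlap, with log2 fold changes of 0.29 and 0.30. Hspa1b, the classical heat shock gene, overlapped between groups at 1.61 to 4.76 rescaled CPM in CS and 2.27 to 3.15 in SD. Cirbp, a cold-inducible RNA-binding protein that falls as brain temperature rises, held 58.9, 58.4, 53.7 and 51.0 rescaled CPM in CS and 42.7, 37.2 and 48.9 in SD. DESeq2 called Cirbp lower (log2 fold change -0.37 ± 0.10, SE; DESeq2 adjusted p = 0.042), while its relative Rbm3 overlapped between groups.

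Circadian clock genes were divided. The median log2 fold change of the 22 tested was -0.01, 4 had SD libraries above and 1 below all CS libraries, and DESeq2 called Rorb and Bhlhe40 higher and Npas2 lower. Among all genes tested, 8.53% lay above and 8.9% below. Npas2, a forebrain partner of BMAL1, held 118.1, 121.7, 141.6 and 146.8 rescaled CPM in CS and 105.5, 109.0 and 98.3 in SD. Bhlhe40, a repressor that is also induced by activity, ranged from 47.2 to 57.4 in CS and from 63.0 to 69.6 in SD. Per1 and Per2, the period genes, overlapped, with log2 fold changes of 0.26 and 0.20, and so did Arntl, Dbp and Nr1d1.

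Glucocorticoid target genes were read because sleep deprivation may be stressful. In WT mice the paper found no significant enrichment of glucocorticoid response genes, taken from a different list, among the genes higher in SD. Of 23 tested, 8 had SD libraries above all CS libraries and 0 below, DESeq2 called Tsc22d3, Klf9, Mt1 and Sult1a1 higher, and the median log2 fold change was 0.27. Tsc22d3, a leucine zipper mediator of glucocorticoid action, held 47.8, 44.6, 38.1 and 36.0 rescaled CPM in CS and 69.6, 66.4 and 61.9 in SD (log2 fold change 0.66 ± 0.11, SE; limma adjusted p = 0.073; DESeq2 adjusted p = 2.1e-05). Fkbp5, a sensitive receptor target, was 24.5 to 25.9 rescaled CPM in CS and 27.1 to 39.7 in SD and missed the DESeq2 threshold (adjusted p = 0.061). Sgk1 and Plin4 overlapped between groups. The part of the steroid response in the other groups was not tested.

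The growth signalling list included 2 of the limma DEGs, Ccnd1 and Trib2. Like the other lists it was chosen with earlier results of these data known, so their presence in it adds no support. Of 22 tested, 8 had SD libraries above all CS libraries and 0 below, against 8.53% and 8.9% of all genes, and DESeq2 called 4 higher. The other D cyclins had positive log2 fold changes, Ccnd3 with 7.06 to 10.3 rescaled CPM in CS and 10.8 to 14.2 in SD (DESeq2 adjusted p = 0.034) and Ccnd2 with 49.1 to 55.0 and 57.99 to 68.2, a log2 fold change of 0.29 that lay under the fold threshold. Igfbp6, an IGF-binding protein, was also called by DESeq2, at 16.7 to 19.2 rescaled CPM in CS and 20.9 to 25.7 in SD.

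Among cell type markers, the myelin and oligodendrocyte genes held the most genes called higher. Of 15 tested, 8 had SD libraries above all CS libraries and 0 below, and the genes that DESeq2 called higher included Cldn11, Mog, Ugt8a and Olig2. In bulk tissue a changed number of cells of a type and a changed amount of RNA in each cannot be told apart. Cldn11, the tight junction protein of the myelin sheath, held 74.1, 62.3, 61.5 and 68.0 rescaled CPM in CS and 102.4, 98.1 and 109.0 in SD (log2 fold change 0.63 ± 0.09, SE; limma adjusted p = 0.051; DESeq2 adjusted p = 1.3e-07). Mog, a protein of the outer sheath, ranged from 27.9 to 35.8 rescaled CPM in CS and from 44.5 to 50.9 in SD. Mbp and Mag, also myelin genes, overlapped, with log2 fold changes of 0.27 and 0.08. Summed over the list, the level was 2092 to 2477 rescaled CPM in CS and 2779 to 3174 in SD, a separation that gives an exact two-sided permutation p of 0.057, the smallest that 4 against 3 libraries allow. The summed excitatory neuron markers (2933 to 3316 rescaled CPM in CS, 3387 to 3573 in SD) and the summed astrocyte markers (4534 to 4937 and 4961 to 5270) separated in the same way, with the same p.

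**Figure D3:**
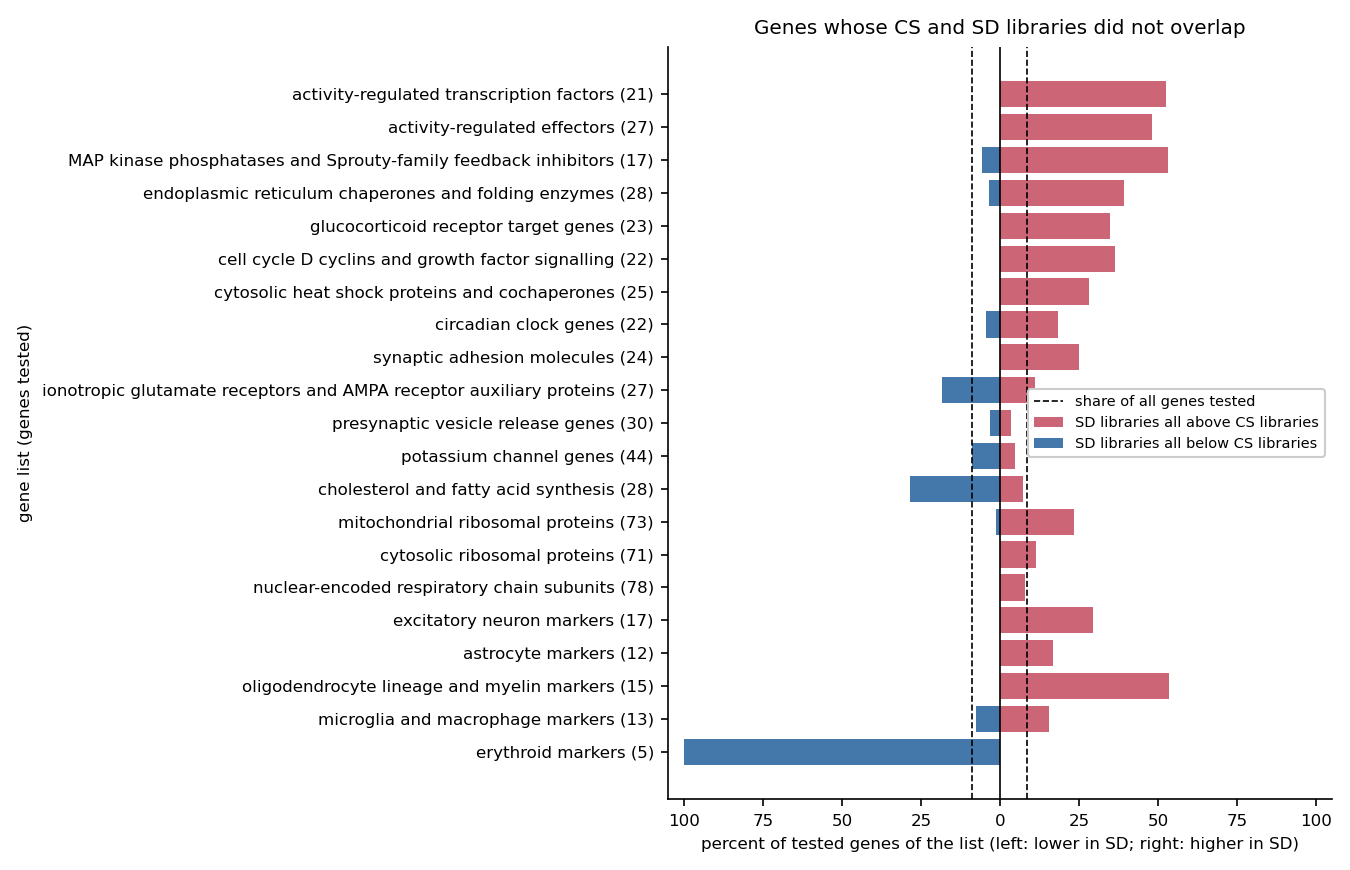
Percent of the tested genes of each list (rows, with the number tested) whose 3 SD libraries all lay above (red, right) or all below (blue, left) the 4 CS libraries of Mef2cf/f mice, with the shares over all genes tested, 8.53% above and 8.9% below, as dashed lines. The activity, MAP kinase feedback and oligodendrocyte lists reach furthest right and the 5 erythroid genes all lie to the left.

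Other cell types gave fewer calls. Of 17 excitatory neuron markers 5 had SD libraries above all CS libraries, and DESeq2 called Nrgn, Neurod6 and Rorb higher. Nrgn encodes neurogranin, a calmodulin-binding protein of dendritic spines, and held 417.6, 444.7, 388.7 and 442.1 rescaled CPM in CS and 582.4, 595.8 and 603.2 in SD (log2 fold change 0.49 ± 0.08, SE; limma adjusted p = 0.073). Pvalb, the marker of fast-spiking interneurons, ranged from 27.4 to 40.3 in CS and from 46.3 to 48.5 in SD and was the inhibitory marker that DESeq2 called, of 15 tested. That list had a median log2 fold change of -0.06 and a lowest of -0.60, with 2 genes above and 1 below all CS libraries. C1qa and C1qc, complement genes of microglia, were the called microglial genes of 13, with log2 fold changes of 0.50 and 0.31. Values in the microglial list went down to -0.42, with a median of 0.10, 2 genes above and 1 below all CS libraries. Without CS library 3 DESeq2 called 0 microglial genes. The lists for astrocytes (12), endothelium (10), mural cells (10), meninges (15), choroid plexus (6) and striatum (9) had 0 DESeq2 calls and 0 limma DEGs, with median log2 fold changes of 0.14, -0.07, 0.09, 0.09, -0.23 and -0.29. They held 3, 2, 1, 9, 1 and 0 genes at an unadjusted limma p of at most 0.05. Of 7 tested olfactory and immature neuron markers, Sox11 was called higher. Of 7 deep layer and claustrum markers, Ntng2 was called lower, from 17.9 to 22.6 rescaled CPM in CS to 13.7 to 14.2 in SD.

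Among synaptic adhesion genes, 6 of 24 had SD libraries above all CS libraries and 0 below, and DESeq2 called Lrrtm1, Lrrtm2 and Cbln4 higher. Cbln4, a secreted organizer of inhibitory and excitatory synapses, held 7.87, 4.42, 6.06 and 5.38 rescaled CPM in CS and 12.1, 17.0 and 11.4 in SD (log2 fold change 1.13 ± 0.19, SE; limma adjusted p = 0.074; DESeq2 adjusted p = 2.6e-05). Lrrtm2, a postsynaptic neurexin ligand, ranged from 67.1 to 80.1 rescaled CPM in CS and from 95.8 to 105.3 in SD. For ionotropic glutamate receptors and their auxiliary proteins 3 of 27 lay above and 5 below, against 8.53% and 8.9% of all genes, and DESeq2 called Grik4, a kainate receptor subunit, lower (69.9 to 105.6 rescaled CPM in CS, 59.9 to 62.6 in SD). Gria1, an AMPA receptor subunit, ranged from 578.6 to 882.5 in CS, with CS library 3 the highest, and from 552.3 to 574.6 in SD, and was not called. Of 44 potassium channel genes DESeq2 called Kcnv1 and Kcna1 higher and Kcnip4 lower, and of 27 sodium, calcium and HCN channel genes Cacna1h lower. Over all genes tested it called 1.55% higher and 2.22% lower, and 1 gene lower among 44 or 27 is near that share. Kcnip4, a channel-interacting calcium sensor, ranged from 4081 to 5463 rescaled CPM in CS and from 3054 to 3968 in SD. Metabotropic glutamate receptors (7), GABA-A subunits (12), postsynaptic scaffolds (18), presynaptic release genes (30), neuropeptides (14) and adenosine genes (9) had 0 DESeq2 calls and 0 limma DEGs. At an unadjusted limma p of at most 0.05 these 6 lists held 1, 1, 1, 3, 3 and 2 genes. Without CS library 1 each of the 6 had 1 to 3 DESeq2 calls.

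Metabolic genes gave few calls. Over all genes tested, 8.53% lay above and 8.9% below all CS libraries, and DESeq2 called 1.55% higher and 2.22% lower. Of 28 cholesterol and fatty acid genes, 8 had SD libraries below all CS libraries and 2 above, and DESeq2 called 1 gene higher, Acsl4, which activates long fatty acids, and 1 lower. Of 73 mitochondrial ribosomal protein genes, 17 lay above and 1 below, and DESeq2 called 3 higher. Cytosolic ribosomal proteins (8 of 71 above, 0 below), respiratory chain subunits (6 of 78 above, 0 below), glycolysis genes (1 of 27 each way) and splicing factors (0 of 35 above, 3 below) had 0 DESeq2 calls and 0 limma DEGs, with 5, 8, 1 and 5 genes at an unadjusted limma p of at most 0.05. The splicing, ribosomal and respiratory counts of 0 rested on CS library 1, without which DESeq2 called genes of each list.

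Genes with no list stood close to the limma threshold as well, and are named after their values were seen. Pdp1, a phosphatase that activates pyruvate dehydrogenase, held 194.2, 178.4, 147.1 and 167.6 rescaled CPM in CS and 280.8, 288.7 and 258.6 in SD. Dio2, the deiodinase by which astrocytes make active thyroid hormone, ranged from 65.4 to 73.9 in CS and from 95.9 to 114.3 in SD. Met, a receptor of cortical projection neurons, ranged from 6.66 to 9.29 and from 13.2 to 14.97, and Nectin1, an adhesion gene, from 22.9 to 24.7 and from 32.7 to 38.6. Ass1, an enzyme of arginine synthesis, ranged from 14.7 to 16.5 in CS and from 10.04 to 10.3 in SD. Each of these 5 had a limma adjusted p of 0.051.

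All 5 tested erythroid genes were lower in SD. Hba-a1, an alpha globin gene, held 33.7, 34.2, 50.2 and 37.1 rescaled CPM in CS and 16.4, 28.6 and 14.2 in SD, a log2 fold change of -1.01 ± 0.22 (SE; DESeq2 adjusted p = 0.0028). Hba-a2, Hbb-bs, Hbb-bt and the heme synthesis gene Alas2 had log2 fold changes of -1.27, -0.94, -1.03 and -0.68, with SD libraries below all CS libraries for each, and DESeq2 called all 5. The near-identical globin copies share reads, so their separate values are uncertain. Summed over these genes the level was 123.2 to 182.5 rescaled CPM in CS and 56.4 to 105.2 in SD. In the other genotypes the median of the sum was higher in SD, but CS and SD libraries overlapped. It was 58.8 (28.2 to 118.2) in 6 WT CS libraries and 234.9 (97.9 to 285.4) in 7 WT SD libraries. In Mef2c-cKO mice it was 63.0 (10.7 to 108.2) in the 3 CS and 135.1 (76.0 to 141.5) in the 3 SD libraries. Mef2c-cKO CS library 8 held the lowest level of each of the 5 genes. The part of residual blood in other results was not tested.

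**Figure D4:**
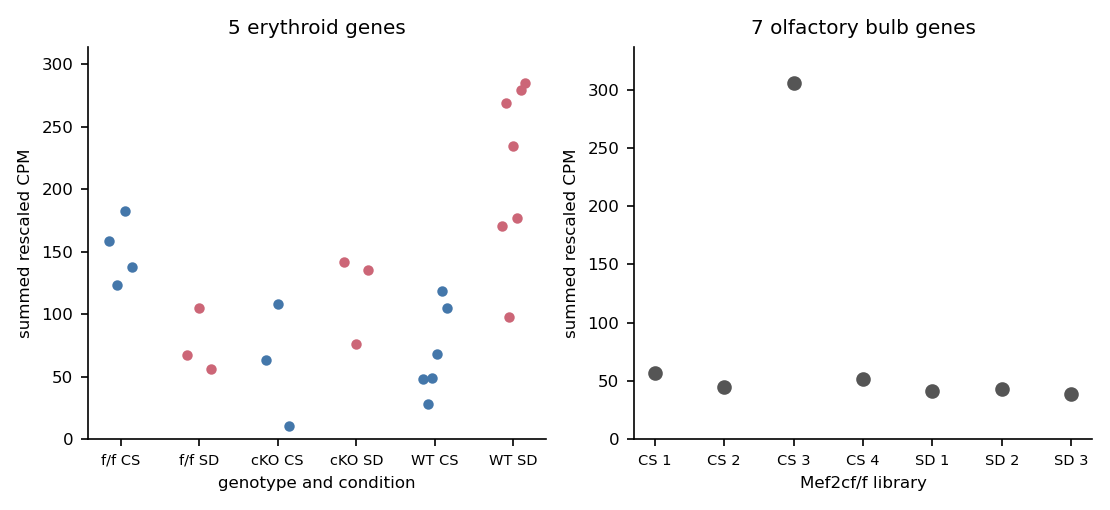
Left, summed rescaled CPM of Hba-a1, Hba-a2, Hbb-bs, Hbb-bt and Alas2 in each library (points) by genotype and condition. Right, summed rescaled CPM of Th, Cdhr1, Calb2, Pbx3, Eomes, Doc2g and Tbx21 in each Mef2cf/f library; erythroid sums are lower in SD than CS in Mef2cf/f and CS library 3 alone reaches 306.2 in the right panel.

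The groups were read again without CS library 3, whose olfactory genes stood apart. DESeq2 then called 122 genes higher (0.98%) and 153 lower (1.23%), and 10.2% of genes lay above and 11% below all remaining CS libraries. Called higher were 8 of 21 activity-regulated transcription factors, 4 of 27 effectors, 4 of 17 MAP kinase feedback genes, 7 of 28 ER chaperone genes and 6 of 15 oligodendrocyte genes. All 5 erythroid genes were again called lower, while effector calls dropped from 9 to 4. Higher calls went from 4 to 2 in the glucocorticoid and growth lists, from 3 to 0 in mitochondrial ribosomal genes and from 3 to 4 in adhesion genes. The lists that hold Hdac7, Cirbp, Cryab, C1qa and C1qc, and Cacna1h had 0 calls. Of the clock genes 1 was still called higher and 0 lower. An adenosine gene was now called lower and a respiratory chain subunit higher, and 0 ionotropic glutamate receptor genes were called.

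Without CS library 1, the library that moved the number of calls most, DESeq2 called 656 genes higher (5.28%) and 653 lower (5.25%), and 17.7% of genes lay above and 16.3% below all remaining CS libraries. Called higher were 9 of 21 activity-regulated transcription factors, 10 of 27 effectors, 5 of 17 MAP kinase feedback genes, 11 of 28 ER chaperone genes and 7 of 15 oligodendrocyte genes, and 4 of 5 erythroid genes were called lower. Calls lower in SD went from 1 to 8 of 27 ionotropic glutamate receptor genes (9 below all CS libraries), from 1 to 6 of 27 sodium, calcium and HCN channel genes, from 1 to 5 of 44 potassium channel genes and from 0 to 3 of 18 postsynaptic scaffold genes (7 below). They also went from 0 to 2 of 7 metabotropic glutamate receptors and from 1 to 5 of 28 cholesterol and fatty acid genes. Of the other lists with 0 calls above, DESeq2 then called 1 GABA-A subunit and 2 neuropeptides higher, 1 adenosine gene lower and 1 presynaptic gene each way. Splicing factors had 19 of 35 above all CS libraries and 5 called higher, cytosolic ribosomal proteins 5 of 71 called each way, and respiratory chain subunits 5 of 78 called higher. Among marker lists, 1 astrocyte gene was called higher and 1 meningeal gene lower. The lists that hold Hdac7 and Cirbp had 0 calls.

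Fold changes also followed base composition across genes: Spearman's rho of the log2 fold change with transcript GC content was -0.30 over 12387 genes, and within single libraries the deviation from the mean had a rho with GC from -0.51 (CS library 1) to 0.57 (CS library 4). After correction for GC content and length, limma called 124 DEGs, 74 higher and 50 lower, with all 5 original DEGs among them. The list medians became 0.51 for the transcription factors, 0.42 for the effectors, 0.24 for the ER chaperones and 0.33 for the oligodendrocyte genes.

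To ask where sleep loss acted differently in the floxed line, the SD effect was set against those of the other genotypes. The SD effect differed from that in WT for 1983 of 13106 genes (15.1%; limma, adjusted p at most 0.05), more positive in the floxed mice for 1225 and more negative for 758. With CPM as deposited the balance turned, to 507 more positive and 2919 more negative, and the median difference was -0.30. Base composition moved with the difference: the log2 fold change of WT mice had a rho with GC content of 0.72, against -0.30 in the floxed mice and -0.02 in Mef2c-cKO mice. After GC and length correction 205 genes were called. It was 23 to 2721 when a floxed library was left out, 23 without SD library 3, 92 without SD library 1, 172 without CS library 4, 274 without CS library 2 and 866 without SD library 2. WT libraries held 44395600 to 218549000 reads over CS and SD, and their deposited CPM summed to 938651 to 985958, whereas those of floxed libraries summed to 1000000, so that genotype and library processing cannot be told apart.

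All 5 erythroid genes had a more negative effect in floxed than in WT mice, and all 5 differences passed the threshold after GC correction as well. Alas2 had a log2 fold change of -0.68 ± 0.14 (SE) in floxed, 0.97 ± 0.13 in WT and 1.11 ± 0.47 in Mef2c-cKO mice, a difference from WT of -1.64 ± 0.20 (SE; adjusted p = 6.8e-04, limma), or -1.42 after GC correction (adjusted p = 0.0033). Hba-a2 and Hba-a1 had the most negative differences of all genes called, -3.15 and -3.13 on the log2 scale. Next in size were Hist2h2ac, Pcsk1n and Hist4h4, of which Pcsk1n encodes a secreted neuropeptide precursor and the others histones, at -3.11, -3.02 and -2.96. Their log2 fold changes in floxed mice were -0.69, -0.07 and -0.44, and in WT mice 2.42, 2.95 and 2.52, and after GC correction the differences were -2.08, -2.59 and -3.29, with adjusted p of 0.11, 0.081 and 0.087 (limma). WT CS library 5 held 13.2, 86.1 and 16.2 rescaled CPM of these genes. The other WT CS libraries held 0.07 to 1.44, 4.18 to 31.1 and 0.09 to 4.74. These differences thus rest on scattered WT CS values, which lay near the floor for the histone genes in several libraries.

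Among the early genes named here, Egr2 and Egr1 differed from WT both before and after GC correction. The log2 fold change of Egr2 was 1.78 ± 0.33 (SE) in floxed, 0.03 ± 0.25 in WT and 1.49 ± 0.98 in Mef2c-cKO mice, with a difference from WT of 1.75 ± 0.45 (adjusted p = 0.024, limma; 0.035 after GC correction). The CS level was 0.61 ± 0.47 (s.d., n = 4) rescaled CPM in floxed and 2.30 ± 1.23 (n = 6) in WT mice, and the SD levels were 3.26 ± 1.44 (n = 3) and 2.16 ± 0.52 (n = 7). The Mef2c-cKO SD libraries held 2.42, 18.9 and 1.05 rescaled CPM of Egr2, so its value in that genotype leaned on a single library. Egr1 differed by 0.86 (adjusted p = 0.038; 0.020 after GC correction). Homer1 had a log2 fold change of 0.89 in floxed and -0.30 in WT mice, a difference of 1.19 ± 0.24 (SE; adjusted p = 0.015, limma) that was 0.44 after GC correction (adjusted p = 0.16). Mef2c likewise had 0.14 in floxed and -0.80 in WT mice, a difference of 0.93 before (adjusted p = 0.018) and 0.36 after the correction (adjusted p = 0.096). Cox7b2 had the largest positive difference, 1.93, and Rnf17, Brinp3 and Vmn2r84 came after Egr2, at 1.50, 1.49 and 1.45. Of these 4 genes Brinp3, a neuronal growth inhibitor, also passed after correction (1.24, adjusted p = 0.0073). Met passed both as well, at 1.28 and 0.96. Cox7b2 scattered at low levels, with 18.5 rescaled CPM in WT CS library 2 and 3.56 to 4.75 in the other WT CS libraries. Its floxed CS libraries held 0.69 to 6.46.

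Log2 fold changes in floxed and WT mice lay side by side, by choice after their values were seen, for Ccnd1 (log2 fold change 0.65 and 0.64), Hspa5 (0.59 and 0.56), Arc (1.27 and 1.18), Cldn11 (0.63 and 0.61) and Calr (0.34 and 0.38), with limma adjusted p of 0.89 to 0.94 for the differences. Of the 190 genes that DESeq2 called higher in floxed mice and that were tested in WT, 113 (59.5%) had a positive log2 fold change in WT, against 48.9% of uncalled genes with a positive value in floxed mice. For the 273 called lower, 145 (53.1%) were negative in WT, against 42.2% of uncalled genes. In Mef2c-cKO mice, 114 of 191 genes called higher in floxed mice (59.7%) were positive, against 50.5% of uncalled genes. Of 275 called lower, 194 (70.5%) were negative there, against 53.3% of uncalled genes.

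Against Mef2c-cKO mice the SD effect differed for 1 of 12860 genes (0.00778%), with 1005 genes with an unadjusted p up to 0.05 and 59 calls by DESeq2. The gene was Cep295, which encodes a centriole protein. It ranged from 55.3 to 68.6 rescaled CPM over the 4 CS libraries and from 59.8 to 62.2 over the 3 SD libraries of floxed mice, while Mef2c-cKO mice held 66.2 to 76.1 in CS and 258.5 to 280.9 in SD (difference 1.91 ± 0.11, SE; adjusted p = 3.5e-06, limma). The floxed CS and SD libraries overlapped, and the Mef2c-cKO libraries did not. The difference thus rested on the 3 Mef2c-cKO SD libraries, and its cause was not tested. Among the 5 DEGs the Mef2c-cKO log2 fold changes were -0.09 for Ccnd1, 0.24 for Gadd45a, 0.55 for Trib2, -0.07 for Zfyve28 and -0.14 for L3mbtl1, with adjusted p of 0.37 to 0.89 for the differences. The values of Ccnd1 and Trib2 leaned on single Mef2c-cKO libraries. Ccnd1 held 30.1, 34.0 and 65.6 rescaled CPM in CS and 35.8 to 42.6 in SD. Trib2 held 41.8, 100.9 and 36.3 in SD and 31.5 to 42.9 in CS. Cldn11 and Mog came nearest to a called difference among the myelin genes, at -0.27 and -0.35 in Mef2c-cKO mice (adjusted p of the differences 0.13 and 0.16). By list, the median in Mef2c-cKO mice was 0.45 for activity-regulated transcription factors and 0.39 for effectors, beside 0.50 and 0.43 in floxed mice. It was 0.17 beside 0.25 for ER chaperones and -0.07 beside 0.27 for oligodendrocyte genes. Mef2c-cKO SD library 6 lay far above SD libraries 5 and 7 for many activity genes. Fos was 45.0 rescaled CPM there against 8.28 and 4.98, with 4.48 to 11.1 in CS. Arc was 144.8 against 57.6 and 48.0, with 35.6 to 61.2 in CS, while Crem was not raised in this library (28.2 against 31.7 and 29.7). The 2 activity medians of Mef2c-cKO mice therefore depend in part on 1 library.

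**Figure D5:**
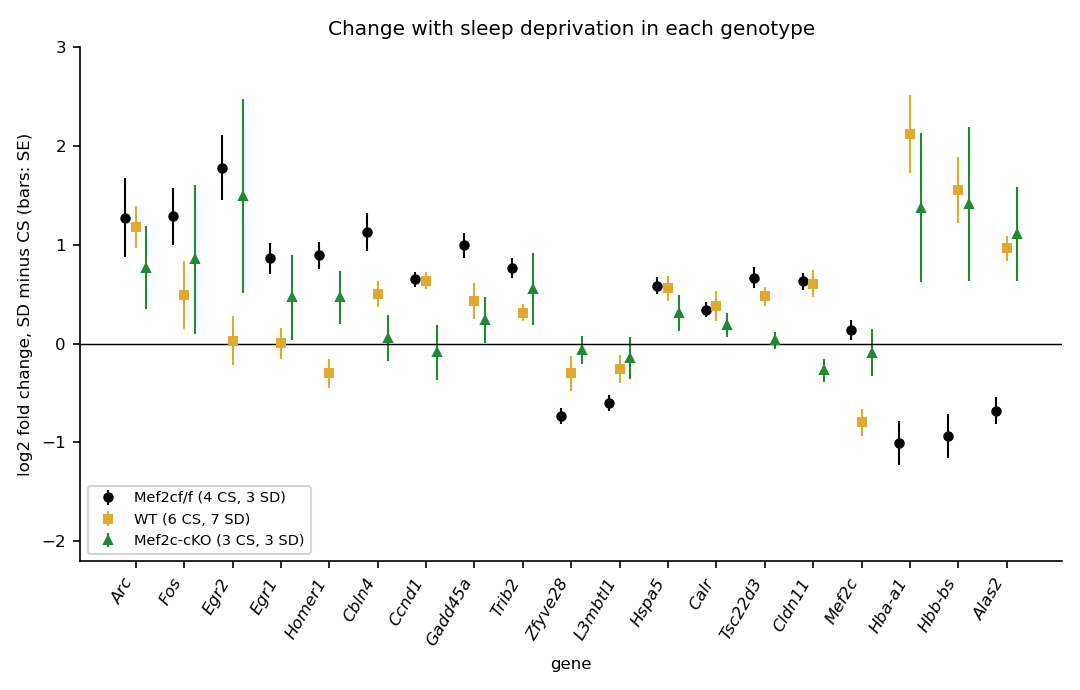
Log2 fold change from CS to SD with its standard error for 19 genes named in the text (horizontal axis) in Mef2cf/f (black circles), WT (yellow squares) and Mef2c-cKO mice (green triangles), each from its own fit. Ccnd1, Hspa5 and Arc lie close together in Mef2cf/f and WT mice, Egr2 and Homer1 lie higher in Mef2cf/f, and the erythroid genes point in opposite directions.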

How the data were processed

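Frontal cortex RNA was sequenced as stranded mRNA libraries. After Trimmomatic and STAR (mm10), the authors took HTSeq counts of unique alignments and deposited them as CPM from edgeR; tool versions and the annotation release are not given in the sources used here. All 711645 deposited CPM values were whole multiples (tolerance 0.01) of the value of 1 read, which gave back the read counts of the authors. CPM was rescaled by median-of-ratios factors over 11570 genes, and genes needed a CPM of at least 1 in all libraries of a group. Groups came from the labels. limma 3.58.1 tested log2(rescaled CPM + 0.5) with Benjamini-Hochberg adjustment, in a fit of the 7 floxed libraries for CS against SD and in fits of 4 group means for differences between genotypes. DESeq2 1.42.0 and edgeR 4.0.16 on the recovered counts, other pseudocounts, filters and scalings, correction for GC content and length (GENCODE M21) and left-out libraries were alternatives. Scripts were tested on simulated data. Sums over genes used an exact two-sided permutation test.

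Members and gene lists were chosen with earlier results of these data known. Named genes are Mef2c, the DEGs, members of the gene lists, the 5 largest genotype differences in each direction, and those said to be named after their values were seen. Some genes that meet this rule are not reported here.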

Additional observations from a re-analysis of the deposited data

Results flagged for a closer look

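Among 130 sets of 4 CS values, 10 had a highest or lowest library far from the others, where chance gives about 1 in 20. CS library 3 was the high one for Th (8.46 rescaled CPM), Calb2 (30.5), Pbx3 (224.8), the sum of Th, Cdhr1, Calb2, Pbx3, Eomes, Doc2g and Tbx21 (306.2) and the summed olfactory bulb and immature neuron markers (690.7). CS library 1 was low for Zfyve28 (133.6), and CS library 4 was high for Spry4 (7.32) and the summed astrocyte markers (4937) and low for Ostc (17.8). CS library 2 was high for Bhlhe40 (57.4).

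The log2 effect of sleep loss differed between Mef2cf/f and WT mice (limma, adjusted p at most 0.05) for 29 of the 113 genes of the tables behind the text, and for 7 further genes with the largest differences. More positive in Mef2cf/f mice, as the difference in log2 fold change, were Cox7b2 1.93, Egr2 1.75, Rnf17 1.50, Brinp3 1.49, Vmn2r84 1.45, Met 1.28, Rorb 1.25, Homer1 1.19, Kcnv1 1.05, Lrrtm2 0.95, Acsl4 0.94, Mef2c 0.93, Ugt8a 0.90, Egr1 0.86, Pdp1 0.83, Kcnip4 0.78, Dio2 0.72, Spred1 0.71, Clock 0.68, Crem 0.51, Mog 0.50, Trib2 0.45, Klf9 0.43. More negative were Hba-a2 -3.15, Hba-a1 -3.13, Hist2h2ac -3.11, Pcsk1n -3.02, Hist4h4 -2.96, Hbb-bt -2.62, Hbb-bs -2.50, Hspa1b -1.86, Alas2 -1.64, Cacna1h -1.38, Plin4 -1.20, Npas4 -1.17, Ass1 -0.84. The threshold was also passed after GC and length correction by Egr1, Egr2, Rorb, Cacna1h, Hba-a1, Hba-a2, Hbb-bs, Hbb-bt, Alas2, Met and Brinp3. The other 25 missed it, with adjusted p of 0.056 to 0.71, and kept their sign, their corrected difference being 10.1% to 111.3% of the uncorrected one (median 52.1%). It was at least as large for 3 of them, Trib2 (0.46), Mog (0.55) and Hist4h4 (-3.29). How much of these differences follows genotype was not tested.

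The effect in Mef2c-cKO mice exceeded that in Mef2cf/f mice for Cep295, by 1.91 on the log2 scale, with the 3 Mef2c-cKO SD libraries at 258.5 to 280.9 rescaled CPM and every other Mef2c-cKO and Mef2cf/f library at 55.3 to 76.1. The cause was not tested.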

How the results depend on the processing

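The 5 DEGs kept their direction under every alternative run, while their adjusted p reached up to 0.35. Their number was 13 with a pseudocount of 1, 12 with CPM of at least 5 in every library, 9 with edgeR, 124 with GC and length correction, 467 with DESeq2 and 1750 with array quality weights. It was 0 (2330 genes with an unadjusted p up to 0.05) with no filter on low values, where 15979 genes were tested, and 0 to 590 when a library was left out. The DESeq2 count was 106 to 1309 and the count of genes that do not overlap was 2567 to 4228 without a library, alternatives chosen after seeing the data. Whether replicate numbers pair the libraries could not be settled from so few pairs. CS and SD libraries of the same number had correlations of deviations of 0.05, 0.17 and 0.26, and those of unlike number had -0.38 to 0.46. The replicate block gave 13 DEGs, with 2553 genes with an unadjusted p up to 0.05 against 2111 without it. Of 2239 values of named genes under alternatives, 0 reversed a call, but only the values of the 5 DEGs had a call to reverse. Of the 2239, 40 were counted as weaker and 256 as stronger, and 11 values turned sign while uncalled in both runs.

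The count of genes whose effect differed from WT (1983) was 3426 for CPM as deposited (507 more positive and 2919 more negative, against 1225 and 758, with the median difference at -0.30), 1142 without a filter, 7486 with array weights, 205 after GC and length correction and 23 to 2721 without a library. The count against Mef2c-cKO mice (1) was 315 with array weights, 4 after GC and length correction, 59 with DESeq2 and 1 to 2 without a library. The causes were not tested. With 4 and 3 libraries, differences below the scatter of the CS libraries were not detectable.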
